A study of Mus musculus with 12 samples.

Results

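The 10 genes described here mark the cells that form and sheathe blood vessels in the brain and the connective tissue that covers it. Cldn5, Pecam1 and Flt1 mark endothelial cells, Pdgfrb and Vtn mark mural cells (pericytes and smooth muscle cells), and Col1a1, Col1a2, Dcn, Lum and Igf2 mark meningeal fibroblasts. They were listed by symbol as known cell type markers, found in the gene tables by NCBI gene ID, and are 10 of the 27179 gene IDs measured. The study lowered Brpf1, a subunit of histone acetyltransferase complexes, with a short hairpin RNA and sequenced total gene expression in neurons in culture and in tissue. These markers were read in all 4 groups to describe how much vascular and meningeal RNA each bulk library held, and whether it differed with the hairpin.

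Each group had 3 libraries. CA1 shBrpf1 was hippocampal CA1 tissue that received AAV2-shBrpf1-GFP, and CA1 scramble was the same tissue with AAV2-scramble-GFP, an adeno-associated virus with a hairpin of scrambled sequence. C57BL/6 mice received the viruses at 4 weeks and are labelled as 8 weeks old at sampling. The labels name a left and a right CA1 for the injections, so side of the brain and virus cannot be told apart. Neurons shBrpf1 and neurons scramble were primary hippocampal neurons of C57BL/6 embryos, infected with the same pair of viruses on day 3 in vitro and used on days 14 to 15. All libraries therefore carried the virus and GFP, and none came from uninfected cells. The labels give the embryos as embryonic day 18 to 19 in one field and as a younger stage in another. One label calls all 12 samples neural progenitor cells, while their titles name neurons or CA1. The study describes its RNA as 3 batches and the samples of each type as 3 pairs of shBrpf1 and scramble, without saying which libraries form a pair or whether the CA1 pairs are separate animals. The p-values measure the spread between these samples. In bulk RNA, fewer cells of a type and less RNA per cell cannot be told apart.

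Brain capillaries are tubes of endothelial cells sealed by tight junctions, and pericytes lie on their outer wall within a shared basement membrane. Fibroblasts lie in the meninges, the choroid plexus and around larger vessels, where they secrete fibrillar collagen and proteoglycans. Vascular endothelial growth factor guides endothelial cells through its receptors, and endothelial platelet-derived growth factor B recruits mural cells through the receptor encoded by Pdgfrb.

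Levels are given as CPM, counts scaled to the same total in every library, and, where genes are compared with each other, as CPM per kilobase of gene model. The libraries held 18330618 to 30275304 counts. Brpf1 itself had 28.4, 37.9 and 29.0 CPM in CA1 shBrpf1, against 41.0, 47.1 and 36.6 CPM in CA1 scramble, and 27.6, 50.4 and 32.9 CPM in neurons shBrpf1, against 23.8, 53.6 and 39.2 CPM in neurons scramble. Its log2 fold change was -0.38 ± 0.18 (SE; unadjusted p = 0.0719, edgeR) in CA1 and -0.06 ± 0.36 in neurons, so neither knockdown passed the test in these sequencing counts. By RT-qPCR, the study reported less Brpf1 RNA with shBrpf1 both in cultured neurons and in the hippocampus of injected mice. Pan-neuronal markers summed to 4868 to 7621 CPM in CA1 and 2289 to 6486 CPM in neurons, and neural progenitor markers to 102 to 131 CPM in CA1 and 271 to 978 CPM in neurons. Gfap, the astrocyte filament protein, had 1381 to 3559 CPM in the 4 neuron libraries numbered 1 and 2, against 117 and 74.3 CPM in those numbered 3, which stood apart. All 972 genes of chromosome 13 were at 0 in the 6 CA1 tables, while 672 to 737 of them had counts in the neuron tables. None of the 10 markers lies there, and these genes were left out of every comparison between CA1 and neurons.

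Cldn5, Pecam1 and Flt1 were abundant in CA1 and close to the counting floor in neurons. The 3 endothelial markers together summed to 81.2 to 98.6 CPM in the 6 CA1 libraries and to 0.648 to 3.73 CPM in the 6 neuron libraries. Cldn5, which encodes the main claudin of the blood-brain barrier, had 26.5, 30.0 and 42.2 CPM in CA1 shBrpf1 and 41.3, 35.5 and 43.3 CPM in CA1 scramble. In neurons it had 0.844, 0.205 and 0 CPM with shBrpf1 and 1.26, 0.227 and 0 CPM with scramble, from counts of 24, 6 and 0 and of 32, 7 and 0. A count of 0 allows up to 3 counts, or 0.174 and 0.183 CPM in these libraries, a limit that covers counting error only. The lowest CA1 library was thus far above the highest neuron library.

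Pecam1, the adhesion molecule of endothelial junctions, had 16.2, 19.1 and 19.8 CPM in CA1 shBrpf1 and 22.8, 18.9 and 19.4 CPM in CA1 scramble, against 0.422, 0.308 and 0.64 CPM in neurons shBrpf1 and 1.73, 0.389 and 0.365 CPM in neurons scramble. Flt1, the vascular endothelial growth factor receptor 1, had 44.3, 42.5 and 36.6 CPM in CA1 shBrpf1 and 17.1, 38.2 and 33.4 CPM in CA1 scramble. It had 0.176, 0.137 and 0.407 CPM in neurons shBrpf1 and 0.746, 0.0324 and 0.304 CPM in neurons scramble, the last from 19, 1 and 5 counts. Neurons scramble 1 held the most of each endothelial marker among the neuron libraries, with 32 counts of Cldn5, 44 of Pecam1 and 19 of Flt1.

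Between scramble libraries, all 3 endothelial markers were higher in CA1 than in neurons. The log2 fold change was 6.36 ± 0.68 for Flt1 (SE; 82.4-fold, adjusted p = 0.000169), 6.25 ± 0.93 for Cldn5 (76.3-fold, adjusted p = 0.00102) and 4.59 ± 0.54 for Pecam1 (24.1-fold, adjusted p = 0.000304), by edgeR's quasi-likelihood test with Benjamini-Hochberg adjustment. A gene was called here at an adjusted p under 0.05 and an absolute log2 fold change of at least 1. Cldn5 and Flt1 reached the count filter only through CA1, where they are high, so their calls and the endothelial median are a description. Of the 10 markers 3 were called higher and 3 lower in CA1, and over all 16668 genes tested the shares called were 8.51% higher and 8.65% lower. By range alone, 4 markers were higher in all CA1 scramble than in all neuron scramble libraries (Vtn was the fourth) and 3 were lower, against 20.0% and 19.0% of all genes tested. The median log2 fold change was 6.25 over the endothelial, 1.20 over the mural and -1.95 over the fibroblast markers, beside -0.02 over all genes.

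**Figure D1:**
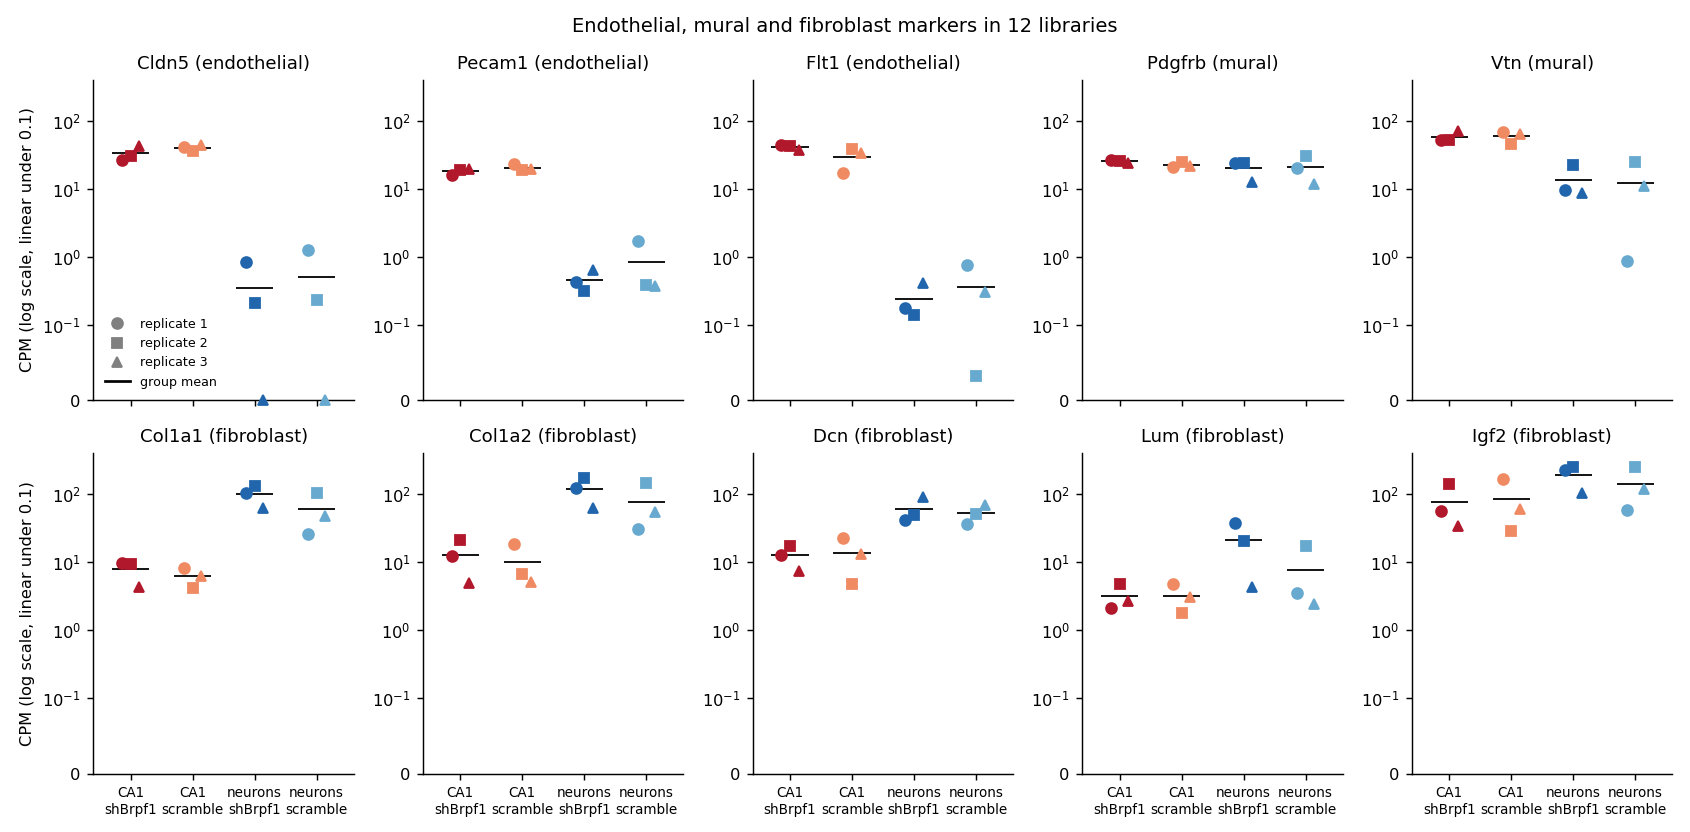
CPM (log axis) of each of the 10 markers in each library, the axis being linear under 0.1, with a point per library and a line at the group mean, for CA1 shBrpf1, CA1 scramble, neurons shBrpf1 and neurons scramble. The endothelial markers lie between 16.2 and 44.3 CPM in CA1 and between 0 and 1.73 CPM in neurons, while Col1a1 and Col1a2 are higher in the neuron libraries.

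Of 20 other endothelial genes tested, 14 were called higher in CA1 and 1 lower (median 4.70 on the log2 scale). In the neuron libraries alone, 14 of the 20 reached the count filter. The rest entered only through CA1, where they are higher, so this count and median are a description. Ly6a, which entered in this way, had a log2 fold change of 9.25 ± 0.69 (adjusted p = 2.41e-05). Its mean was 36.0 CPM in CA1 scramble and 0.0478 CPM in neurons scramble, the latter from 0 to 2 counts a library. Abcb1a, the P-glycoprotein drug efflux pump of brain capillaries, averaged 26.4 CPM in CA1 scramble and 0.342 CPM in neurons scramble. The gene called lower was Slco1c1, a thyroid hormone carrier also known from astrocytes, at -1.22 ± 0.30 (adjusted p = 0.0124), with 52.9 CPM in CA1 scramble and 123.4 CPM in neurons scramble. Not all endothelial genes were near the floor in neurons. The 20 genes summed to 363 to 555.4 CPM in CA1 and 193 to 294 CPM in neurons. In neurons scramble the sum averaged 258.1 CPM, of which Slco1c1 held 123.4 CPM and Slc2a1 67.8 CPM. Neither is restricted to vessels, so the sum is no measure of endothelial RNA. Egfl7, a matrix protein secreted by endothelium, averaged 25.5 CPM in CA1 scramble and 8.67 CPM in neurons scramble and was called higher in CA1 (1.56 ± 0.38, adjusted p = 0.0127). Cdh5, the endothelial cadherin (8.53 CPM in CA1 scramble and 3.37 CPM in neurons scramble), Kdr, the main vascular endothelial growth factor receptor (9.22 CPM in CA1 scramble and 6.41 CPM in neurons scramble), Plvap (9.89 CPM in CA1 scramble and 5.44 CPM in neurons scramble) and the lipid transporter Mfsd2a (20.4 CPM in CA1 scramble and 23.3 CPM in neurons scramble) were not called. These 5 genes were chosen after their values were seen. Slc2a1, the glucose transporter GLUT1, which is not restricted to vessels, had 87.2 CPM in CA1 scramble and 67.8 CPM in neurons scramble and was not called. Microglial markers summed to 283 to 572 CPM in CA1 and 1.34 to 18.5 CPM in neurons, and red blood cell markers to 23.0 to 81.8 CPM in CA1 and 0.445 to 2.01 CPM in neurons, so markers of these other cells moved with the endothelial ones.

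The mural markers were present in both sample types. Pdgfrb, the receptor that pericytes use to follow platelet-derived growth factor B, had 26.0, 25.6 and 23.9 CPM in CA1 shBrpf1, 20.8, 24.6 and 21.5 CPM in CA1 scramble, 24.0, 23.9 and 12.4 CPM in neurons shBrpf1 and 20.1, 30.6 and 11.6 CPM in neurons scramble. The ranges overlapped, and CA1 scramble differed from neurons scramble by a log2 fold change of 0.10 ± 0.32 (95% interval -0.61 to 0.81, adjusted p = 0.858). Vtn, the matrix protein vitronectin, which brain pericytes secrete, had 52.7, 52.3 and 70.4 CPM in CA1 shBrpf1 and 68.7, 45.6 and 63.8 CPM in CA1 scramble. In neurons it had 9.53, 22.6 and 8.49 CPM with shBrpf1 and 0.864, 24.4 and 10.8 CPM with scramble.

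Every CA1 library exceeded every neuron library in Vtn, yet its log2 fold change of 2.30 ± 0.77 between scramble groups missed the threshold (4.91-fold, 95% interval 0.60 to 3.99, adjusted p = 0.0517). Single libraries decided this: Vtn was called higher in CA1 without neurons scramble 1 (adjusted p = 0.0233), without neurons scramble 2 (adjusted p = 0.0163) or without neurons shBrpf1 2 (adjusted p = 0.0471). DESeq2 (adjusted p = 0.00753) and limma-voom (adjusted p = 0.0157) also called it, and so did edgeR with chromosome 13 kept (adjusted p = 0.0473).

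Of 15 other mural genes tested, 9 were called higher in CA1 and 1 lower (median 2.58 on the log2 scale). In the neuron libraries alone, 8 of the 15 reached the count filter. The rest entered only through CA1, where they are higher, so this count and median are also a description. Atp13a5, known from brain pericytes, was at 4.03 (adjusted p = 0.000126; means of 7.64 CPM in CA1 scramble and 0.465 CPM in neurons scramble), and Mcam, an adhesion molecule of vessels, at 2.85 (adjusted p = 0.000404; 33.0 CPM in CA1 scramble and 4.56 CPM in neurons scramble). The contractile genes Acta2 (100.2 CPM in CA1 scramble and 143 CPM in neurons scramble) and Tagln (6.67 CPM in CA1 scramble and 12.1 CPM in neurons scramble) were not called. The gene called lower, named after its value was seen, was Notch3, a receptor of vascular smooth muscle, at -1.72 ± 0.41 (adjusted p = 0.0121). Of 13 further genes of vascular endothelial and platelet-derived growth factor signalling, 1 was called higher and 3 lower. In the neuron libraries alone, 12 of these 13 reached the count filter. Flt4, the receptor of lymphatic endothelium, was higher (4.32, adjusted p = 0.000668). Vegfa, the main endothelial growth factor, was lower (-1.93, adjusted p = 0.00545; 47.7 CPM in CA1 scramble and 182 CPM in neurons scramble), and so was Pdgfra (-3.41, adjusted p = 0.0226; 41.4 CPM in CA1 scramble and 442 CPM in neurons scramble), which oligodendrocyte precursors and fibroblasts share.

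The fibroblast markers ran the other way, with most collagen RNA in the neuron cultures. Col1a1, the first chain of type I collagen, had 9.77, 9.46 and 4.34 CPM in CA1 shBrpf1 and 8.28, 4.21 and 6.19 CPM in CA1 scramble, against 103, 131 and 63.3 CPM in neurons shBrpf1 and 25.8, 106 and 48.2 CPM in neurons scramble. Its partner chain Col1a2 had 12.3, 21.4 and 4.94 CPM in CA1 shBrpf1 and 18.6, 6.65 and 5.19 CPM in CA1 scramble, against 124.5, 172 and 62.3 CPM in neurons shBrpf1 and 31.03, 147 and 54.4 CPM in neurons scramble. Dcn, the proteoglycan decorin that binds collagen fibrils, had 12.7, 17.5 and 7.46 CPM in CA1 shBrpf1 and 23.0, 4.85 and 13.3 CPM in CA1 scramble, against 42.4, 49.3 and 91.8 CPM in neurons shBrpf1 and 36.6, 52.0 and 69.9 CPM in neurons scramble. For these 3 genes every CA1 library was below every neuron library.

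Between scramble libraries, Col1a1 was 9.63-fold lower in CA1 (log2 fold change -3.27 ± 0.53, adjusted p = 0.00163), Col1a2 7.64-fold lower (-2.93 ± 0.72, adjusted p = 0.0137) and Dcn 3.86-fold lower (-1.95 ± 0.52, adjusted p = 0.0198). Col1a2 and Dcn rested on single libraries. Without CA1 scramble 3 neither was called (adjusted p = 0.0596 for Col1a2 and 0.0682 for Dcn), which left 1 marker lower, Col1a2 was lost without CA1 scramble 2 (adjusted p = 0.0527) and Dcn without neurons scramble 3 (adjusted p = 0.0632).

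Lum, the related proteoglycan lumican, varied widely among the neuron libraries. It had 2.14, 4.75 and 2.65 CPM in CA1 shBrpf1 and 4.79, 1.80 and 3.12 CPM in CA1 scramble, against 37.9, 20.6 and 4.25 CPM in neurons shBrpf1 and 3.496, 17.2 and 2.44 CPM in neurons scramble. The scramble groups overlapped, at a log2 fold change of -1.26 ± 0.82 (adjusted p = 0.291). Igf2, an imprinted growth factor made by meninges and choroid plexus, had 56.0, 142 and 33.6 CPM in CA1 shBrpf1 and 168.5, 28.7 and 59.7 CPM in CA1 scramble, against 224, 251 and 105.5 CPM in neurons shBrpf1 and 59.0, 249 and 120.5 CPM in neurons scramble. Its groups overlapped too, at -0.74 ± 0.71 (adjusted p = 0.488). Igf2 overlaps Igf2os, which had 1 to 58 counts a library, and Mir483, with 0 to 2, and whether counting used strand is not given in the sources used here.

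**Figure D2:**
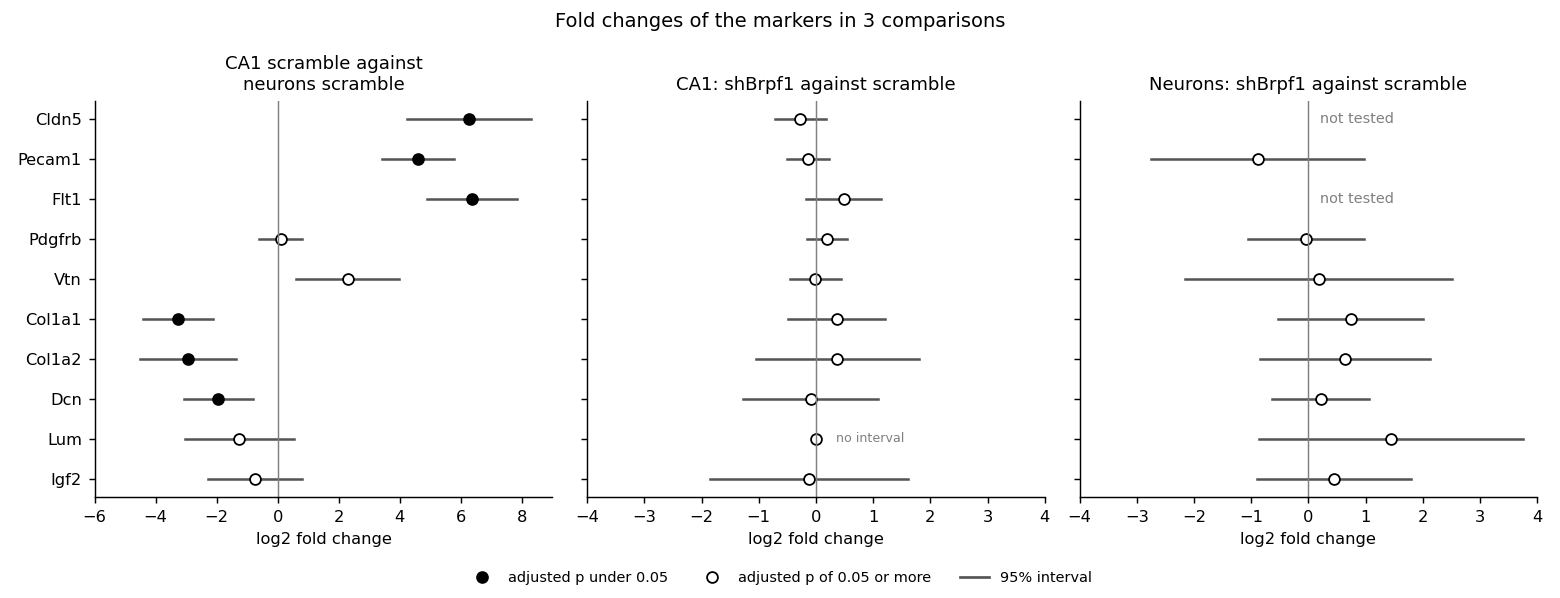
Log2 fold change of each marker with its 95% interval in 3 comparisons: CA1 scramble over neurons scramble, and shBrpf1 over scramble in CA1 and in neurons, with filled points at an adjusted p under 0.05. Among these, intervals clear of 0 appear only in the comparison of CA1 with neurons, for the endothelial markers and Vtn above 0 and for Col1a1, Col1a2 and Dcn below it.

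Of 21 other meningeal fibroblast genes 6 were called lower in CA1 and 1 higher (median -1.12 on the log2 scale). Col3a1, the type III collagen chain, was at -5.01 ± 0.92 (adjusted p = 0.00324), with 2.11 CPM in CA1 scramble and 67.5 CPM in neurons scramble. Col6a1 was at -3.27 (adjusted p = 0.00570), with 6.37 CPM in CA1 scramble and 61.2 CPM in neurons scramble. Both varied widely among the neurons scramble libraries, from 20.35 to 147 CPM for Col3a1 and from 14.2 to 133 CPM for Col6a1. The gene called higher was Mgp, an inhibitor of calcification, at 3.56 ± 0.74 (adjusted p = 0.00595; 7.99 CPM in CA1 scramble and 0.647 CPM in neurons scramble). Of 19 genes that fold, modify or cross-link collagen, 6 were called lower and 0 higher. Serpinh1, the collagen chaperone, was at -2.70 ± 0.48 (adjusted p = 0.00278; 18.6 CPM in CA1 scramble and 121 CPM in neurons scramble), and the cross-linking enzyme Lox was 63.98-fold lower (adjusted p = 0.000887; 0.155 CPM in CA1 scramble and 10.2 CPM in neurons scramble). The size of the Lox difference rests on a CA1 level close to the counting floor. Sparc, a collagen-binding glycoprotein also made by glia and endothelium, was abundant in both (164 CPM in CA1 scramble and 239 CPM in neurons scramble) and was not called.

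Of 16 genes of the insulin-like growth factor system around Igf2, 6 were called lower in CA1 and 1 higher. Igfbp3, a binding protein that carries the factors, was 8.00-fold lower (adjusted p = 2.81e-05; 11.01 CPM in CA1 scramble and 88.1 CPM in neurons scramble). Igfbp2, which the fibroblast list also holds, was at -2.71 ± 0.51 (adjusted p = 0.00360; 52.0 CPM in CA1 scramble and 340.4 CPM in neurons scramble). Igf2r, the receptor that clears Igf2, was at -1.24 (adjusted p = 0.00477). The gene called higher, named after its value was seen, was Igfbp6, a binding protein that prefers Igf2, at 2.89 (adjusted p = 0.0138).

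Promoters are shown for 3 called markers, an endothelial pair that was higher in CA1 and a collagen chain that was lower, since the levels above set these genes apart. They are RefSeq sequences of GRCm38.p6, from 250 bases before to 50 after the start of the gene. The table used holds promoters of 5 of the 10 markers: Cldn5, Flt1, Vtn, Col1a2 and Igf2. Capitals mark exact matches, on either strand, to TATAAA (the TATA box), CCAAT (the CCAAT box), GGGCGG (the GC box) or CCGGAA (an ETS-type motif). Cldn5 lies at chr16:18776847-18778262, Flt1 at chr5:147561604-147726438 and Col1a2 at chr6:4505618-4541543, and the windows are chr16:18776597-18776896 on the plus strand, chr5:147725962-147726261 on the minus strand and chr6:4505368-4505667 on the plus strand.
Cldn5: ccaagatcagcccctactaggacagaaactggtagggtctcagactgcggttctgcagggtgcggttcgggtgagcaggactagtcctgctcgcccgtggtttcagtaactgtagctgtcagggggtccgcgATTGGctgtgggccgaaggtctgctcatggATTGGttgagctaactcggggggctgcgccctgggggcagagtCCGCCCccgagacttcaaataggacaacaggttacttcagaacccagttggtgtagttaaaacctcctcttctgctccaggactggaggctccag
Flt1: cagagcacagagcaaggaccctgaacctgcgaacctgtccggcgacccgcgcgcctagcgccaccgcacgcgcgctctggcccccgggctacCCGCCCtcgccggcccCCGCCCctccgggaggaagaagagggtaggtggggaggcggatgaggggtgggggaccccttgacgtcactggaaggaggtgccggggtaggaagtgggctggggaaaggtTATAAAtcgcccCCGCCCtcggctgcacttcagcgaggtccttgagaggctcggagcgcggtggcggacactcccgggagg
Col1a2: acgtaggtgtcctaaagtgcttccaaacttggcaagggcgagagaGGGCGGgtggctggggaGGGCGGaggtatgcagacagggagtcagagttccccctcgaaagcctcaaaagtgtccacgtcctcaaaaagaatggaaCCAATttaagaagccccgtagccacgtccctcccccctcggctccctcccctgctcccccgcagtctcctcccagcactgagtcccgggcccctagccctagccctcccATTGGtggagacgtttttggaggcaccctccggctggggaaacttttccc
Flt1 had TATAAA with its first base at -31, with 3 matches to CCGCCC, the reverse complement of GGGCGG. Cldn5 had ATTGG, the reverse complement of CCAAT, at -118 and -88 and CCGCCC at -45. Col1a2 had CCAAT at -109, ATTGG at 1 and GGGCGG at -205 and -188. Among all 32851 promoters listed there, 13.6% held TATAAA, 37.4% CCAAT, 35.7% GGGCGG and 14.9% CCGGAA on either strand. CCGGAA was not in any window of the 5 markers. The matches are a description of the letters only.

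Per kilobase, the order of the markers differed between sample types. In CA1 shBrpf1 Vtn came first with 33.5 CPM per kilobase, followed by Cldn5 (23.2), Igf2 (18.2), Flt1 (6.55), Dcn (6.03), Pecam1 (5.55), Pdgfrb (4.65), Col1a2 (2.51), Col1a1 (1.67) and Lum (1.53). Neighbours in this order whose libraries did not overlap were Vtn and Cldn5, Igf2 and Flt1, Pecam1 and Pdgfrb, and Pdgfrb and Col1a2. In CA1 scramble Vtn (34.0 CPM per kilobase), Cldn5 (28.3) and Igf2 (20.2) led again, and Col1a2 (1.97), Lum (1.56) and Col1a1 (1.32) came last. Between neighbours in CA1 scramble, Pdgfrb and Col1a2 alone did not overlap.

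In neurons shBrpf1 Igf2 came first with 45.7 CPM per kilobase, followed by Dcn (29.4), Col1a2 (23.3), Col1a1 (21.0), Lum (10.1), Vtn (7.76), Pdgfrb (3.71), Cldn5 (0.247), Pecam1 (0.138) and Flt1 (0.0382). Neurons scramble began the same way, with Igf2 (33.7 CPM per kilobase), Dcn (25.4), Col1a2 (15.04) and Col1a1 (12.7), and ended with Cldn5 (0.349), Pecam1 (0.250) and Flt1 (0.0575). Neighbours that did not overlap were Vtn and Pdgfrb, Pdgfrb and Cldn5, and Pecam1 and Flt1 in neurons shBrpf1, and Lum and Cldn5 in neurons scramble. By these ranges the first 4 places were not resolved in either neuron group. Within single libraries, Igf2 was above Col1a2 in every neuron library, at 1.77 to 2.69 times its level per kilobase. Dcn was above Igf2 in neurons shBrpf1 3 and in neurons scramble 1 and 3.

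As shares of the summed CPM per kilobase of the 10 markers, fibroblast markers took 14.53% to 42.4% in CA1 shBrpf1 and 15.3% to 41.6% in CA1 scramble, against 89.7% to 92.9% in neurons shBrpf1 and 87.8% to 90.8% in neurons scramble. Endothelial markers took 28.4% to 41.2% in CA1 shBrpf1 and 27.6% to 46.3% in CA1 scramble, against 0.151% to 0.507% in neurons shBrpf1 and 0.172% to 3.03% in neurons scramble. Neurons scramble 1 was the neuron library with the most, and the other 5 were at 0.507% or less.

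**Figure D3:**
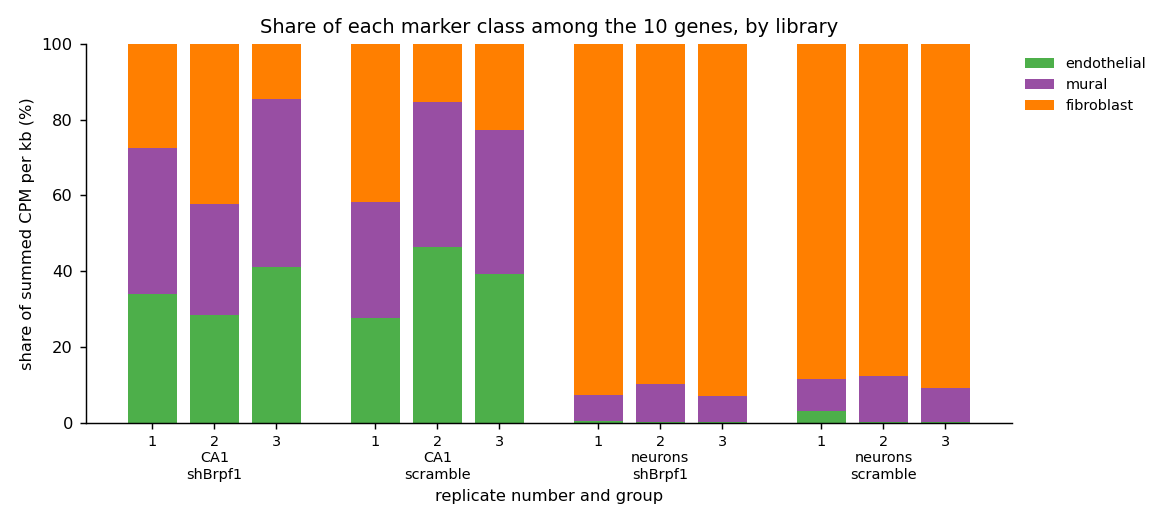
Share (percent) of the summed CPM per kilobase of the 10 markers taken by endothelial, mural and fibroblast markers in each of the 12 libraries, CA1 before neurons. Fibroblast markers take 87.8% to 92.9% of every neuron library and 14.53% to 42.4% of the CA1 libraries.

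Within the fibroblast class, the ratios between markers differed in spread between sample types. The ratio of Col1a1 to Col1a2 in CPM per kilobase averaged 0.770 ± 0.252 in CA1 shBrpf1 and 0.827 ± 0.424 in CA1 scramble, against 0.948 ± 0.145 in neurons shBrpf1 and 0.888 ± 0.0923 in neurons scramble (SD, n = 3 each). Over single libraries it ran from 0.484 to 1.302 in CA1 and from 0.787 to 1.11 in neurons. Lum over Dcn ran from 0.169 to 0.374 in CA1 and from 0.0350 to 0.898 in neurons, so the collagen chains kept closer to each other than Lum did to Dcn in neurons, but not in CA1. The ratio of Igf2 to Col1a2 was 5.51 to 8.28 in CA1 shBrpf1 and 5.24 to 13.95 in CA1 scramble, above the 1.77 to 2.19 in neurons shBrpf1 and the 2.06 to 2.69 in neurons scramble without overlap. All these ratios are of CPM per kilobase, were read from the same libraries as the levels and were not tested.

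In cultured neurons, no marker passed the test for a change with shBrpf1. The study's threshold of an absolute log2 fold change of at least 1 with an unadjusted p under 0.05 called 0 of 8 tested markers in either direction, against 0.0498% of all 16066 genes higher and 0.00622% lower. Cldn5 and Flt1 were too low to be tested. At an unadjusted p under 0.05 alone edgeR gave 0 markers, and DESeq2 and limma-voom also called 0 at the threshold. No marker was free of overlap between the groups, against 0.622% of genes that were higher and 0.990% that were lower without overlap.

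All 5 fibroblast markers had positive log2 fold changes, with a median of 0.64, beside 0.33 over the 8 tested markers and -0.01 over all genes. The values were 1.44 ± 0.97 for Lum (95% interval -0.87 to 3.75), 0.74 ± 0.53 for Col1a1 (-0.53 to 2.00), 0.64 ± 0.63 for Col1a2, 0.45 ± 0.57 for Igf2 and 0.21 ± 0.36 for Dcn (SE). In this fit, which had no block for the library number, all 5 intervals held 0 and reached above 1, to 2.13 for Col1a2, 1.80 for Igf2 and 1.06 for Dcn. Vtn was at 0.18 ± 0.98, Pdgfrb at -0.04 ± 0.43 and Pecam1 at -0.89 ± 0.78.

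Much of the spread followed the library number. Libraries of the same number deviated together, so shBrpf1 was also set against scramble within each number. In number 1 the ratio of shBrpf1 to scramble was 3.99 for Col1a1, 4.01 for Col1a2, 10.85 for Lum, 11.03 for Vtn and 3.80 for Igf2, while Dcn was at 1.16 and Pdgfrb at 1.19. In numbers 2 and 3 the same ratios were 1.24 and 1.31 for Col1a1, 1.18 and 1.15 for Col1a2, 1.20 and 1.74 for Lum, 0.925 and 0.784 for Vtn, and 1.01 and 0.876 for Igf2. Col1a1, Col1a2 and Lum were thus above 1 in all 3 pairs, mostly through number 1, where neurons scramble 1 was the lower library. The list of 22 meningeal fibroblast genes summed to 964, 965 and 478 CPM in neurons shBrpf1 and 569, 1005 and 537 CPM in neurons scramble, and neuronal markers to 6486, 3308 and 5062 CPM in neurons shBrpf1 and 5321, 2289 and 5206 CPM in neurons scramble. The part of these cell markers in the ratios was not tested.

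With the replicate number as a block, Col1a1 was at 0.89 ± 0.38 (unadjusted p = 0.0697, adjusted p = 0.847, edgeR), Lum at 1.49 ± 0.73 (unadjusted p = 0.106) and Col1a2 at 0.80 ± 0.42 (unadjusted p = 0.119). The block still called 0 markers, while over all genes it called 25 higher and 26 lower, against 8 and 1 without it. Without neurons scramble 2 alone, Col1a1 (log2 fold change 1.45, unadjusted p = 0.0135), Col1a2 (1.51, unadjusted p = 0.0215) and Lum (2.83, unadjusted p = 0.0189) passed the study's threshold, at adjusted p = 1.00 each. That fit kept neurons shBrpf1 2, also high in collagen (Col1a2 at 172 CPM, against 147 CPM in scramble 2), without its pair, so it mixes shBrpf1 with the library number. Without both libraries of number 2, Col1a1 (1.17, unadjusted p = 0.0395) and Lum (2.82, unadjusted p = 0.0436) passed the threshold and Col1a2 did not. Without both libraries of number 3, which held little Gfap, 0 markers passed it.

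**Figure D4:**
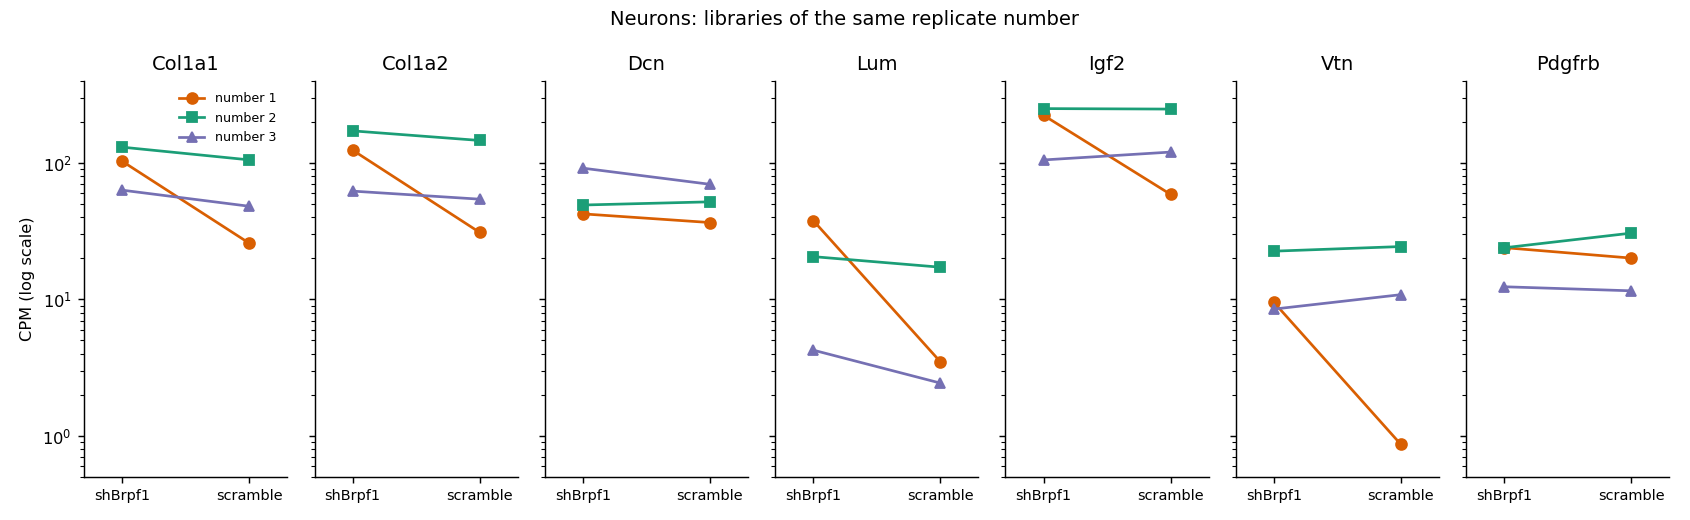
CPM (log axis) of 7 fibroblast and mural markers in neurons shBrpf1 and neurons scramble, with a line joining the libraries of each number. The steepest lines are those of number 1 for Vtn and Lum, at ratios of 11.03 and 10.85, against 0.784 to 1.74 in numbers 2 and 3.

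In CA1, no marker passed the test for a change with shBrpf1 either. The study's threshold called 0 of 10 markers, against 0.331% of all 16022 genes higher and 0.137% lower. No marker was at an unadjusted p under 0.05 with edgeR, and DESeq2 and limma-voom called 0 at the threshold. Again no marker was free of overlap between the groups, against 2.65% of genes higher and 2.69% lower without overlap. The median log2 fold change was -0.14 over the endothelial and 0.00 over the fibroblast markers, beside 0.01 over all genes.

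The smallest p belonged to Flt1, at 0.48 ± 0.29 (unadjusted p = 0.127, adjusted p = 0.934, edgeR), whose lowest library was CA1 scramble 1 with 17.1 CPM. Without that library its log2 fold change was 0.21. CA1 scramble 1 also had the smallest share of counts in genes longer than 5000 bases, 18.6% against 23.6% to 28.5% in the other CA1 libraries, and the Flt1 model is 6280 bases long. Whether the share of long genes has a part in the Flt1 value was not tested. Cldn5 was at -0.27 ± 0.19, Pecam1 at -0.14 ± 0.16, Pdgfrb at 0.19 ± 0.15 and Vtn at -0.01 ± 0.19, so the vascular markers had small errors in CA1. The fibroblast markers were less precise, with Col1a1 at 0.36 ± 0.37, Col1a2 at 0.38 ± 0.61, Dcn at -0.09 ± 0.52 and Igf2 at -0.12 ± 0.73 (95% interval -1.85 to 1.61). Lum was at 0.00, with no standard error because its test statistic was 0.

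In CA1, Igf2 was highest in the 2 libraries richest in markers of the choroid plexus, the tissue next to the hippocampus that secretes cerebrospinal fluid. The list of 10 choroid plexus genes summed to 196, 5484 and 442 CPM in CA1 shBrpf1 and 6477, 249 and 1745 CPM in CA1 scramble, and to 18.3 to 94.6 CPM in neurons shBrpf1 and 44.7 to 112 CPM in neurons scramble. Its most abundant gene, Ttr, which encodes transthyretin, had 2.96, 2990 and 185 CPM in CA1 shBrpf1 and 4811, 5.41 and 1133 CPM in CA1 scramble. The library with the most Ttr in each group, shBrpf1 2 and scramble 1, was also the highest in Igf2, Col1a2, Dcn and Lum. Col1a1 was highest in scramble 1 (8.28 CPM) but not in shBrpf1 2, with 9.46 CPM against 9.77 CPM in shBrpf1 1. Among the other shBrpf1 libraries Igf2 did not follow the choroid plexus sum, with 56.0 CPM in number 1 and 33.6 CPM in number 3. Without shBrpf1 2 and scramble 1, Igf2 was at 0.04, Dcn at 0.18, Col1a2 at 0.57, Lum at -0.02 and Vtn at 0.18 on the log2 scale. Again no marker passed the threshold. That comparison was chosen after seeing the data.

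**Figure D5:**
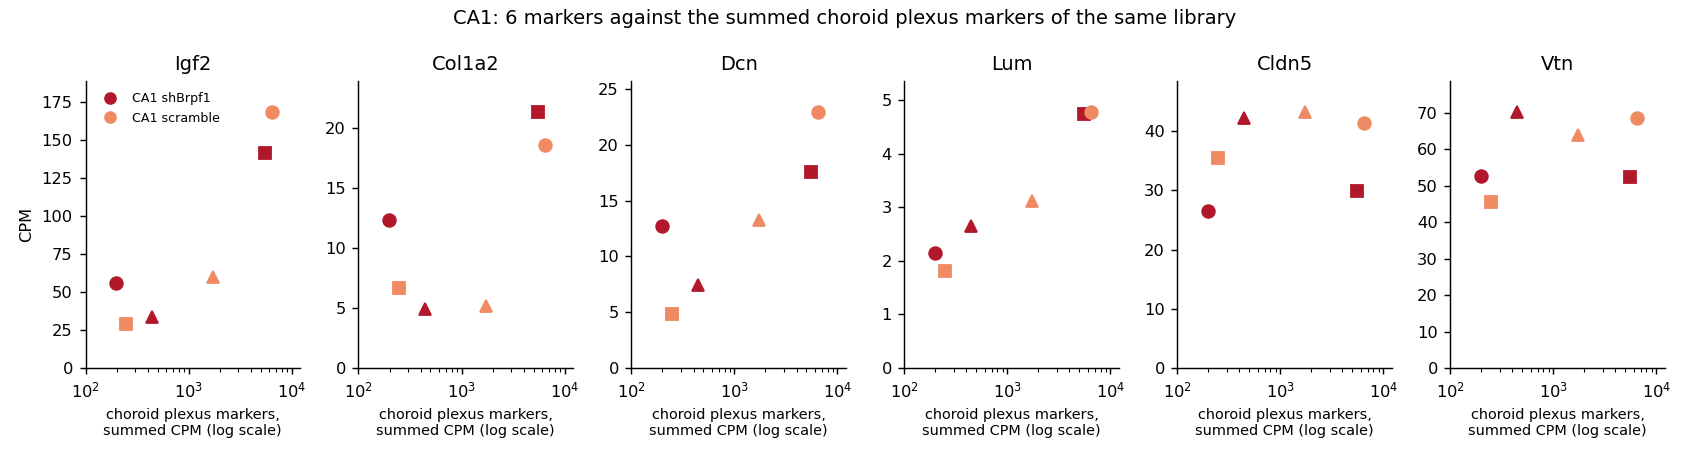
Summed CPM of 10 choroid plexus genes (x, log axis) against the CPM of Igf2, Col1a2, Dcn, Lum, Cldn5 and Vtn (y) in the 6 CA1 libraries, with shBrpf1 and scramble in separate colours. CA1 shBrpf1 2 and CA1 scramble 1, at 5484 and 6477 CPM on the x axis, hold 142 and 168.5 CPM of Igf2, the highest of their groups.

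The effect of shBrpf1 was also compared between CA1 and neurons. Of the 10 markers 0 passed the study's threshold for a CA1 effect minus a neuron effect, against 0.222% of all genes with a higher and 0.0840% with a lower difference, and edgeR gave 0 markers at an unadjusted p under 0.05, with 0 at the threshold by DESeq2 and limma-voom. Cldn5 and Flt1 entered this fit only through CA1, and their neuron effect rests on 0 to 32 and 1 to 19 counts a library, so nothing is read from their differences. Among the other markers, Lum was at -1.45 ± 1.14 (unadjusted p = 0.228) and Pecam1 at 0.76 ± 0.70. The fibroblast markers had a median of -0.39 with 0 of 5 positive, beside 0.02 over all genes. Without neurons scramble 2 alone, which again left neurons shBrpf1 2 without its pair, Lum (-2.84, unadjusted p = 0.0160) passed, at an adjusted p of 1.00. Among the related lists, Cnn1 (3.36 ± 1.32, unadjusted p = 0.0260) and Tagln (2.46 ± 1.11, unadjusted p = 0.0465), both of contractile smooth muscle, and Lox (2.38 ± 1.06, unadjusted p = 0.0441) passed the threshold, each at an adjusted p of 1.00. Cnn1 had 14, 9 and 21 counts in CA1 shBrpf1 and 6, 2 and 18 in CA1 scramble, against 7, 3 and 5 counts in neurons shBrpf1 and 78, 18 and 5 in neurons scramble, so neurons scramble 1 held 78 counts, the most of any library. Tagln ran from 1.34 to 28.4 CPM in neurons scramble, around a mean of 12.1 CPM, against 2.04 to 3.90 CPM in neurons shBrpf1. Its neurons scramble mean thus rested mostly on 1 library. Lox was close to the counting floor in CA1 scramble, so nothing is read from its difference.

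No gene of the related lists was called with shBrpf1 within a sample type. Within CA1 and within neurons 0 genes of the other endothelial, mural, meningeal fibroblast, collagen-processing, vascular growth factor and insulin-like growth factor lists passed the study's threshold. Their median log2 fold changes in CA1 were -0.07, 0.07, 0.14, -0.02, 0.20 and 0.28 in that order, over 13 to 20 genes each. In neurons they were 0.17, -0.15, 0.15, 0.00, -0.13 and 0.01, over 8 to 22 genes each.

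Genes whose pattern over the 12 libraries was nearest to that of each class were ranked by the root mean square difference of centred log2(CPM + 0.5), over 14684 genes. Nearest to the endothelial mean were Adgrl4 (0.30), Myoc (0.39), Vsir (0.39), Siglech (0.40) and Nkx6-2 (0.40). Adgrl4 is known from endothelium, Siglech from microglia and Nkx6-2 from oligodendrocytes. Nearest to the mural mean were Cdh5 (0.28), the endothelial cadherin, Edn3 (0.28), Olfml3 (0.32), Gstm7 (0.32) and Itm2a (0.33). Pdgfrb and Vtn themselves were farther from this mean, at 0.76 each, so it describes neither marker closely. Nearest to the fibroblast mean without Igf2 was Serpinh1 (0.35), followed by Emilin1 (0.44), Tead2 (0.45), Rhod (0.47) and Gm21451 (0.48). Of the markers in that mean, Col1a2 was at 0.41 and Col1a1 at 0.45, but Dcn at 0.66 and Lum at 0.79. Nearest to Igf2 were Mpzl2 (0.40), Mrc2 (0.45), Arhgap28 (0.49), Mdfic (0.55) and Pqlc3 (0.57), all at larger differences than the nearest gene of each class.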

How the data were processed

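The authors deposited 1 table per library of raw counts per NCBI gene ID, made from RNA-seq reads aligned with STAR to the mouse genome and counted per gene with StringTie. Whether counting used strand is not given in the sources used here. Gene symbols, positions and lengths came from RefSeq GRCm38.p6, which named 25275 of 27179 IDs; the 1904 unnamed IDs held 2.46% of counts. The markers and related gene lists were chosen with earlier results of these data known.

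shBrpf1 was compared with scramble in neurons and in CA1, each fitted on its own 6 libraries. CA1 scramble was compared with neurons scramble, and the CA1 effect with the neuron effect, in 1 fit of all 12 libraries without chromosome 13, whose genes were at 0 in CA1. Genes that reached 10 counts in 3 or more libraries were fitted with edgeR 4.0.16 (TMM, robust quasi-likelihood test, R 4.3.3). The study's threshold, an absolute log2 fold change of at least 1 and an unadjusted p under 0.05, was used for the effects of shBrpf1, and an adjusted p under 0.05 in its place between CA1 and neurons. CPM used TMM-scaled library sizes without chromosome 13. The fits were tested on simulated counts with known changes, drawn without the deviations that neuron libraries of the same number share.

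In neurons, libraries of the same number deviated together (r = 0.519, 0.866 and 0.826 across 16066 genes, against -0.734 to -0.174 for different numbers), so the numbers were taken to pair them. Alternatives were DESeq2 1.42.0, limma-voom 3.58.1, other size factors, other filters, a joint fit, the replicate block and leaving out each library. Besides the markers, from each related list the 3 most abundant genes per kilobase and up to 4 called genes with the lowest p could be named, and for each class the 5 nearest genes in pattern.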

Additional observations from a re-analysis of the deposited data

How the results depend on the processing

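Levels moved by less than 1 SD under both other library scalings. Leaving out 1 library at a time gave 0 to 3 markers higher with shBrpf1 in neurons, and 2 without both libraries of number 2. Between CA1 and neurons it gave 3 to 4 markers higher and 1 to 3 lower, and for related lists 0 to 1 endothelial genes lower, 0 to 1 mural genes lower, 1 to 2 meningeal fibroblast genes higher and 0 to 1 insulin-like growth factor genes higher, where DESeq2 gave 2. For the CA1 effect minus the neuron effect it gave 0 to 1 markers higher and 0 to 1 lower, without neurons scramble 2 in both cases; the higher one was Flt1, whose neuron counts were too low to be tested. Over all genes the alternatives gave 0 to 38 higher and 0 to 62 lower in neurons (8 and 1 as reported), 20 to 238 and 4 to 202 in CA1 (53 and 22), and 13 to 161 and 4 to 158 for the difference of effects (37 and 14). The cause was not tested.

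Small log2 fold changes turned direction. In neurons Vtn was -0.17 and Igf2 -0.0387 without number 1, and Pdgfrb was 0.19 without number 2. In CA1 Lum was -0.0176 with DESeq2 size factors, -0.0179 with DESeq2, -0.0307 without a filter, -0.0216 in the joint fit and -0.0217 without the 2 libraries richest in choroid plexus markers, where Vtn was 0.18, Dcn 0.18 and Igf2 0.0431. Dcn was 0.0808 with limma-voom. For the difference of effects Cldn5 was -0.0614 with limma-voom.

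Without 1 library, neurons ranged from -1.24 to 0.26 for Pecam1, -0.34 to 0.35 for Pdgfrb, -0.42 to 1.26 for Vtn and -0.18 to 0.44 for Dcn. CA1 ranged from -0.16 to 0.10 for Vtn, -0.21 to 1.13 for Col1a2, -0.49 to 0.48 for Dcn, -0.42 to 0.38 for Lum and -0.92 to 0.81 for Igf2. Between CA1 and neurons Pdgfrb ranged from -0.19 to 0.49 and Lum from -1.68 to 0.12. The difference of effects ranged from -1.69 to 1.74 for Cldn5, -0.38 to 1.13 for Pecam1, -0.21 to 1.77 for Flt1, -0.17 to 0.51 for Pdgfrb, -1.27 to 0.40 for Vtn, -1.14 to 0.48 for Col1a2, -0.72 to 0.26 for Dcn and -1.37 to 0.35 for Igf2.

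In CA1, libraries of the same number did not all deviate together (r = -0.321, 0.139 and 0.348), so the numbers were not taken to pair them. These correlations cannot show that the libraries are not pairs. With the replicate block Dcn in CA1 was 0.00827, and the block changed no call of a marker in either sample type. Counts of 0 to 44 limit the endothelial markers in neurons.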
